A study of Mus musculus with 6 samples.

Results

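Cofilins, WAVE proteins and ERM proteins are regulators of the actin cytoskeleton, and 10 of their genes were followed here in differentiating mouse ES cells with and without induction of miR-200c and miR-141. The genes were taken by symbol, from probe sets annotated to that gene alone, and stand among 18193 genes measured in this way. They are Cfl1, Cfl2 and Dstn (cofilin family), Wasf1, Wasf2 and Wasf3 (WAVE family), Msn, Ezr and Rdx (ERM family) and Ppm1f, a phosphatase gene. The literature describes 4 of them as miR-200 targets (Cfl2, Wasf3, Msn and Ppm1f), and these were set against the other 6.

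Cofilin and destrin bind actin filaments, sever them and release actin subunits, so that filaments turn over. WAVE proteins act downstream of Rac in a complex that switches on Arp2/3, which starts branched filaments at the leading edge of a cell. Ezrin, radixin and moesin tie the actin cortex to the plasma membrane, ezrin being the form typical of epithelial microvilli and moesin that of blood, endothelial and many mesenchymal cells. Ppm1f, also called POPX2, removes phosphate from PAK kinases, which act on the actin cytoskeleton below Rac and Cdc42. The loss of epithelial shape in gastrulation and in differentiating ES cells involves rebuilding of the actin cortex, and miR-200 microRNAs are known for holding cells in the epithelial state.

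The cells were the A2.miR200c line, made from A2lox mouse ES cells by placing the miR-200c/miR-141 cluster behind their doxycycline-inducible promoter. They were kept on irradiated mouse fibroblast feeders, passaged once without them and then grown as embryoid bodies in Petri dishes. All arrays were of this line and carried the insert. Untreated cultures gave 3 arrays, on days 3, 4 and 5, and induced cultures gave 3 on the same days, with 500 ng/mL doxycycline added on days 2 and 4. RNA was hybridised to Affymetrix MOE430 2.0 arrays. Each treatment had 1 array a day, so values of a single day carry no error, and an SD is the spread of the difference over the 3 days. No doxycycline-treated line without the insert is on these arrays, so the microRNAs and doxycycline itself cannot be told apart. These are bulk samples, in which fewer cells of a type and less RNA per cell cannot be told apart either. All 6 pluripotency markers (Pou5f1, Nanog, Sox2, Zfp42, Dppa4 and Utf1) were above the background of 36.7 on every array, and the median intensity of an array lay between 34.51 and 36.94.

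The mature strands of the induced microRNAs are shown because their seeds (bases 2 to 8, in capitals) decide which transcripts they can pair with. They are given 5′ to 3′ as in RefSeq (GRCm38.p6), with the 3 other members of the family, grouped by shared seed.
miR-200c-3p: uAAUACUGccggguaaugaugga
miR-200b-3p: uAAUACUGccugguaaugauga
miR-429-3p: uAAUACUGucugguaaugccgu
miR-141-3p: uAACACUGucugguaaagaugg
miR-200a-3p: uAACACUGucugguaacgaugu
The endogenous copies of the induced pair lie on the minus strand at chr6:124718324-124718346 (miR-200c-3p) and chr6:124717917-124717938 (miR-141-3p). The seeds of the induced pair differ at 1 base, and a transcript pairs with all 7 seed bases where it holds CAGUAUU for miR-200c-3p or CAGUGUU for miR-141-3p. Whether the transcripts of the 10 genes hold these letters was not analysed here. No probe set was annotated to either microRNA gene, so the induction itself was not measured on these arrays.

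The first question was whether the 4 literature targets differed with induction. None passed the test given further on, and Cfl2 and Ppm1f had lower intensities in the induced culture on all 3 days, as did 14.3% of all genes tested. Cfl2 (Entrez Gene 12632), the cofilin of muscle that many other cells also make, had untreated intensities of 1686, 1568 and 1922 on days 3, 4 and 5 and induced intensities of 941, 833 and 743. Every induced array lay below every untreated one, with no overlap. The share of all genes tested that separate in this way was not counted, here, for Ppm1f or for the probe sets below, so how unusual it is cannot be told. The log2 differences, all taken on log2(intensity + 50), were -0.81, -0.87 and -1.31 for days 3, 4 and 5, a mean of -0.998 ± 0.28 (SD, n = 3 days). Of the 9997 genes with enough signal to be tested, Cfl2 had the 12th lowest mean difference, and it was the only gene at least 1.5-fold lower on all 3 days (0.01% of genes). This count was made after the values were seen. With a smaller pseudocount of 16, Unc5c joined it and the count was 2, and with all probe sets of a gene averaged the count was 0 and the mean difference of Cfl2 was -0.52.

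**Figure D1:**
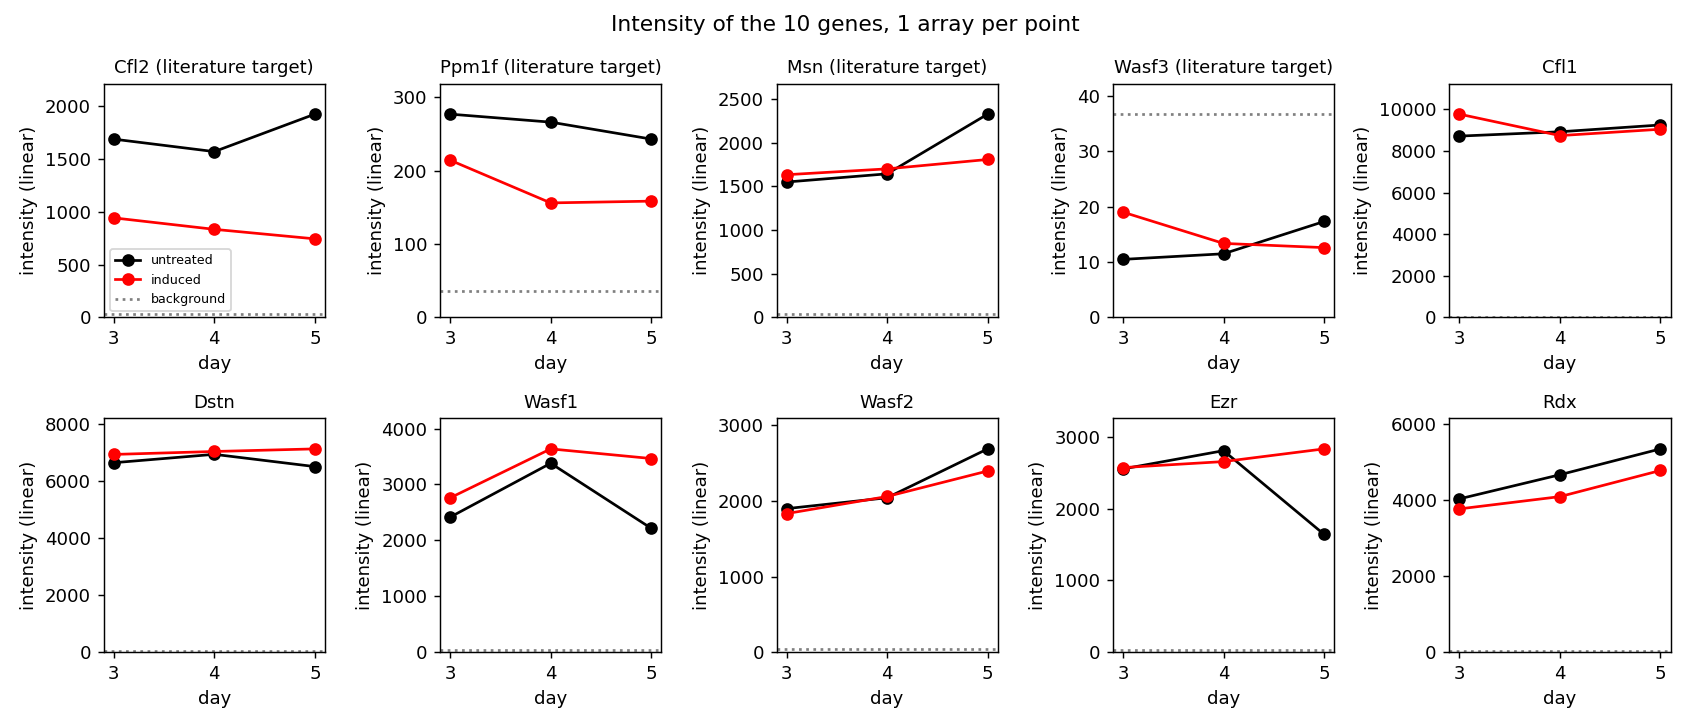
Intensity (linear axis from 0) of the 10 genes on days 3, 4 and 5, untreated in black and induced in red, 1 array per point, with the background of 36.7 dotted. Cfl2 and Ppm1f were lower in the induced culture on each day, Ezr and Wasf1 parted on day 5, and Wasf3 stayed below background.

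Ppm1f (Entrez Gene 68606), the PAK phosphatase gene, had untreated intensities of 277, 266 and 243, against 214, 156 and 159 after induction. The 3 induced values again lay below the 3 untreated ones. Its log2 differences were -0.31, -0.62 and -0.49, with a mean of -0.47 ± 0.16 (SD, n = 3 days), the 144th lowest among the genes tested. It was 1.53-fold lower on day 4 and under 1.5-fold on days 3 and 5. Averaged with its probe set below background, Ppm1f had a mean difference of -0.23.

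Msn (Entrez Gene 17698), the moesin gene, had another pattern. Its untreated intensities were 1551, 1645 and 2328 by day, and its induced ones 1635, 1702 and 1809. The induced arrays were thus slightly brighter on days 3 and 4 and dimmer on day 5 alone, and the groups overlap. The log2 differences were 0.07, 0.05 and -0.36, with a mean of -0.08 ± 0.24 (SD, n = 3 days). The second Msn probe set, 1450379_at, differed by -0.07, 0.02 and -0.23, so both were lowest against untreated on day 5.

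Wasf3 (Entrez Gene 245880), the WAVE form best known from brain, was not above background on any array. Its intensities ran from 10.5 to 19.0 on the main probe set and from 8.81 to 17.2 on the other, all below background in both treatments. It was not tested, and its differences between 0.19 on day 3 and -0.10 on day 5 are those of values below background.

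On days 3 and 4 the differences of the 6 other members, like those of Msn, were smaller than those of Cfl2 and Ppm1f. For the 6 they lay between -0.10 and 0.19 on day 3 and between -0.19 and 0.10 on day 4. Day 5 ran from -0.16 for Wasf2 to 0.77 for Ezr. The median of the mean differences was 0.05 for these 6 genes, -0.27 for the 4 literature targets and -0.47 for the 3 targets above background, beside 0.01 for all genes tested. With probe sets averaged the median of the 4 targets was -0.16. None of these 6 was 1.5-fold lower on any day. Among the literature targets 1 was past 1.5-fold lower on day 3 (0.2% of all genes tested), 2 on day 4 (1.39%) and 1 on day 5 (3.51%), and these were Cfl2 alone, Cfl2 with Ppm1f, and Cfl2 alone. No member was 1.5-fold higher on day 3 (0.09% of genes) or day 4 (1.03%), and Ezr and Wasf1 were on day 5 (5.24%). The medians describe the lists and were not tested.

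**Figure D2:**
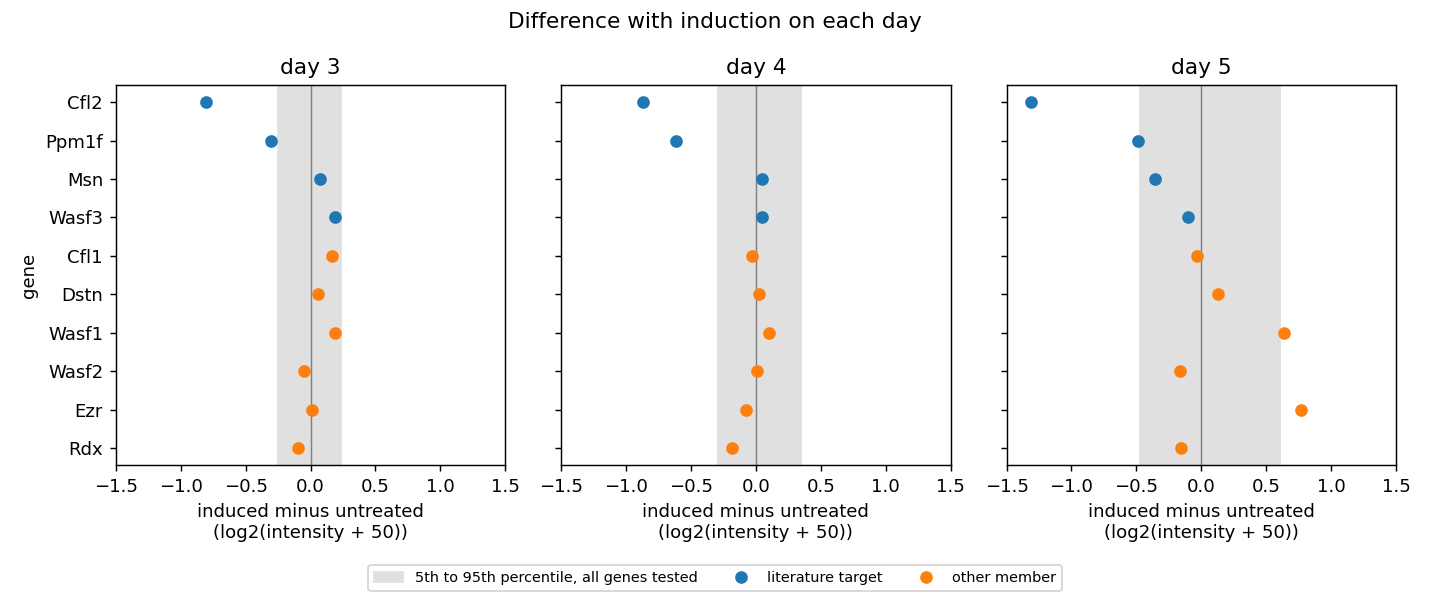
Induced minus untreated on the log2(intensity + 50) scale for the 10 genes on each day, 1 pair of arrays per point, literature targets in blue and other members in orange, with the 5th to 95th percentile of all 9997 genes tested shaded. Cfl2 and Ppm1f lay below the shaded range on all 3 days, and Ezr and Wasf1 above it on day 5.

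Destrin and the non-muscle cofilin, the close relatives of Cfl2, are abundant proteins of most cells that act on filaments in the same way. Dstn (Entrez Gene 56431), the destrin gene, read between 6507 and 6936 untreated and between 6933 and 7127 induced, and the 3 differences averaged 0.07 ± 0.06 (SD, n = 3 days). Cfl1 (Entrez Gene 12631) read between 8718 and 9253 untreated and between 8742 and 9774 induced, with a mean difference of 0.03 ± 0.11. Neither gene thus had a difference like the 1.75-fold to 2.49-fold deficit of Cfl2 on these probe sets. The main Cfl1 probe set carries the suffix that Affymetrix gives to probes able to bind other transcripts, and the other Cfl1 probe set, 1448346_at, read 2184 untreated and 3047 induced on day 5, a difference of 0.47 against -0.03 on the main one. On days 3 and 4 that probe set differed by -0.12 and 0.05.

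The probe sets of Cfl2 agreed in direction and not in size. The probe set 1418066_at read 232, 190 and 205 in the untreated culture by day, and 165, 153 and 125 in the induced one. Here too every induced array was dimmer than every untreated one, and the mean difference was -0.39 ± 0.15 (SD, n = 3 days). The dimmest, 1431432_at, read between 30.3 and 68.9, close to background, and differed by -0.28, -0.01 and -0.22. Of Ppm1f only 1 probe set was above background, so its difference has no second measurement.

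**Figure D3:**
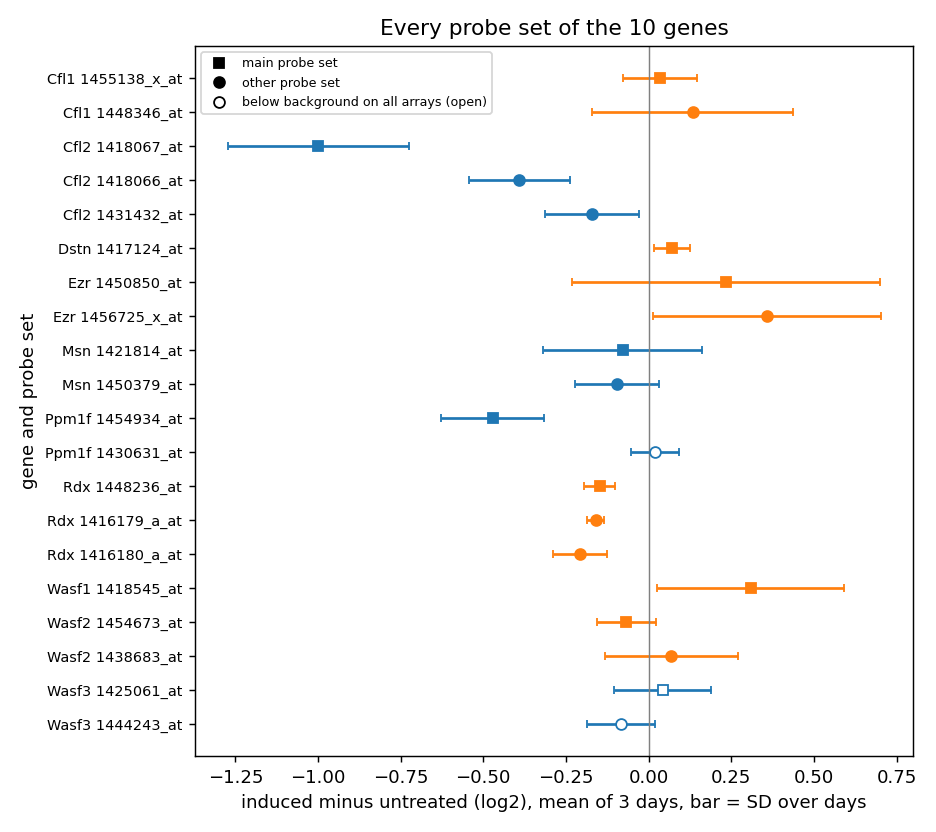
Mean induced minus untreated difference of each of the 20 probe sets of the 10 genes on the log2(intensity + 50) scale, bars showing the SD over the 3 days, squares for the probe set used as main, open symbols for those below background on all arrays. The 3 Cfl2 and the 3 Rdx probe sets all had means below 0, and the 2 Cfl1 and 2 Ezr probe sets means above 0.

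Of the WAVE genes, Wasf1 (Entrez Gene 83767), the form typical of neurons, was higher in the induced culture on each day and most on day 5. It read 2416, 3379 and 2216 by day without doxycycline and 2761, 3636 and 3464 with it. The untreated level on day 5 was the lowest of the 6 and the induced one the second highest. The groups overlap, since the untreated array of day 4 was brighter than the induced array of day 3. Its differences averaged 0.31 ± 0.28 (SD, n = 3 days), and the one of day 5 was 0.63, or 1.55-fold. Wasf2 (Entrez Gene 242687), the widely expressed form, read between 1898 and 2688 untreated and between 1832 and 2396 induced. Its differences were -0.05, 0.01 and -0.16, and those of its second probe set, 1438683_at, 0.19, 0.18 and -0.16, so the direction was not the same on all days.

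Among the 3 ERM genes, Ezr was higher with induction on average and Msn and Rdx lower, and none passed the test given further on. Ezr (Entrez Gene 22350) had untreated intensities of 2554, 2808 and 1643 by day, against 2573, 2656 and 2833 after induction. The single untreated array of day 5 stood apart from the other 5, and the difference of 0.77 (1.70-fold) on that day set the mean of 0.23 ± 0.47 (SD, n = 3 days). Without day 5 the mean was -0.034. The second Ezr probe set, 1456725_x_at, had differences of 0.19, 0.13 and 0.75, so the gap on day 5 was of like size on both. Like the main Cfl1 probe set, this second one carries the suffix for probes able to bind other transcripts.

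Rdx (Entrez Gene 19684), the radixin gene, had a small difference of like size on each day. It read 4034, 4669 and 5349 in the untreated culture and 3771, 4093 and 4781 in the induced one, which gave -0.10, -0.19 and -0.16 and a mean of -0.15 ± 0.05 (SD, n = 3 days). The intensities of the groups overlap because both went up by day. The probe sets 1416179_a_at and 1416180_a_at had means of -0.16 ± 0.02 and -0.21 ± 0.08, and all 9 differences of the 3 probe sets were below 0. Of all genes tested 14.3% were lower on all 3 days and 19.3% higher. Cfl2, Ppm1f and Rdx were the members lower on all 3 days, and Dstn and Wasf1 those higher.

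Tested with limma over the 9997 genes, none of the 9 members tested passed (0% of all genes were called at 0.05, smallest adjusted p = 0.573). The adjusted p was 0.573 for Cfl2, Ppm1f, Rdx, Wasf1 and Dstn, 0.690 for Ezr, 0.716 for Wasf2, 0.822 for Msn and 0.830 for Cfl1. The members with an unadjusted p under 0.05 were Cfl2 (3.1e-04), Ppm1f (0.0037), Rdx (0.0082) and Wasf1 (0.037), beside 8.42% of all genes tested. In that test an effect that grows by day adds to the residual spread. Where a term for the linear change of the effect over the days was also fitted, Cfl2 passed (adjusted p = 0.016), as did 1.45% of all genes (1.03% higher and 0.42% lower, 16% with an unadjusted p under 0.05), while Ppm1f had an adjusted p of 0.077, Rdx 0.11 and Wasf1 0.11. Only 1 residual degree of freedom is left there. Leaving out a day also leaves 1 residual degree of freedom. Without day 5, Cfl2 was 1 of 2 genes called (adjusted p = 0.024), and its adjusted p was 0.341 without day 3 and 0.955 without day 4.

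**Figure D4:**
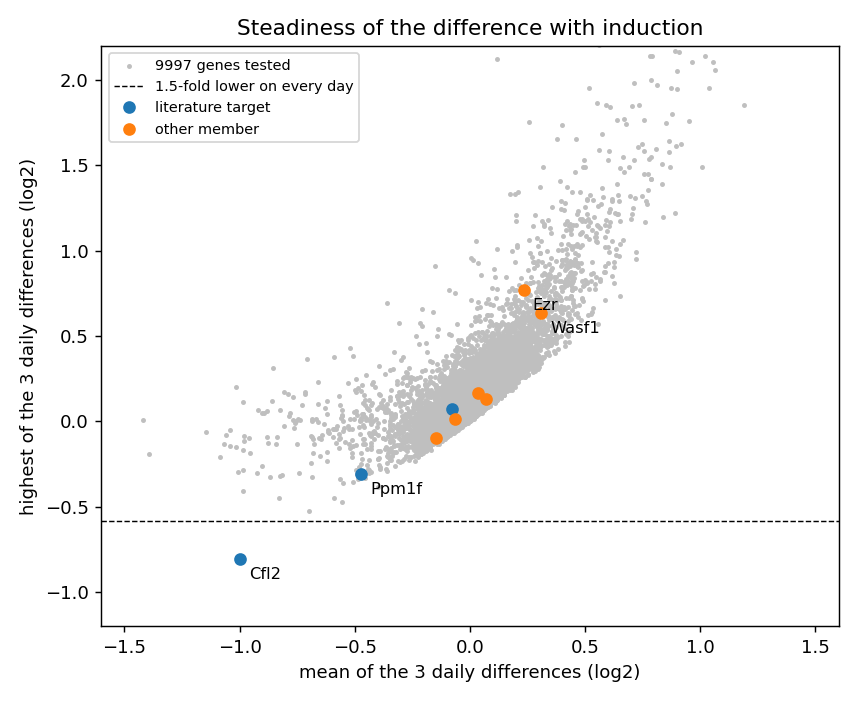
Highest of the 3 daily differences against their mean for the genes tested (grey), literature targets in blue and other members in orange, on the log2(intensity + 50) scale, with the dashed line at 1.5-fold lower on every day. 9 genes lie outside the axes, and within them Cfl2 was the only gene under the line.

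Whether the difference itself grew or shrank over the days was tested as the linear change of the effect per day. No member passed (0% of all genes called, 13.2% with an unadjusted p under 0.05). The slopes were -0.25 log2 units per day for Cfl2 (adjusted p = 0.31), 0.38 for Ezr (0.30), 0.22 for Wasf1 (0.37), -0.21 for Msn (0.34) and -0.10 for Cfl1 (0.30). With a pseudocount of 100, 11 genes were called, and with quantile normalization 2, none of them a member.

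The second question was how the genes moved with differentiation itself, from day 3 to day 5, in the same fit and over both treatments. Rdx rose by 0.37 (SE 0.04, adjusted p = 0.0046) and Wasf2 rose by 0.43 (SE 0.07, adjusted p = 0.0088), and no member fell. These were 2 of the 9 members tested, beside 39.9% of all genes (20.6% higher and 19.2% lower). With the probe sets of a gene averaged, only Rdx passed. The second Wasf2 probe set, 1438683_at, went the other way from day 3 to day 5, by -0.11 untreated and -0.47 induced. Of the others, Msn had a change of 0.36 (adjusted p = 0.073), Ppm1f of -0.25 (0.14) and Ezr of -0.24 (0.41), while Cfl1, Dstn and Cfl2 lay between -0.07 and 0.01. The second Cfl1 probe set, 1448346_at, changed by -0.49 untreated and 0.10 induced.

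The course is given for each culture without a test, since each change rests on 2 arrays and uses the same arrays as the daily differences. Ezr had a change from day 3 to day 5 of -0.62 untreated and 0.14 induced, the untreated part of it coming between days 4 and 5 (-0.76). Wasf1 went up to day 4 in both cultures (0.48 untreated and 0.39 induced) and then had a change of -0.60 untreated and -0.07 induced. Msn moved the other way, with 0.57 untreated, mostly between days 4 and 5 (0.49), and 0.14 induced. From day 4 to day 5 the induced culture thus lay between -0.07 and 0.09 for Ezr, Wasf1 and Msn, and the untreated culture between -0.76 and 0.49.

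On their main probe sets Rdx and Wasf2 moved alike in both cultures, with 0.40 and 0.49 untreated and 0.34 and 0.38 induced. The second Wasf2 probe set fell in both, by -0.11 untreated and -0.47 induced. Cfl2 stood at 0.18 untreated and -0.32 induced, and Ppm1f at -0.16 and -0.34. For both the gap was present on day 3, 1 day after the first doxycycline.

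**Figure D5:**
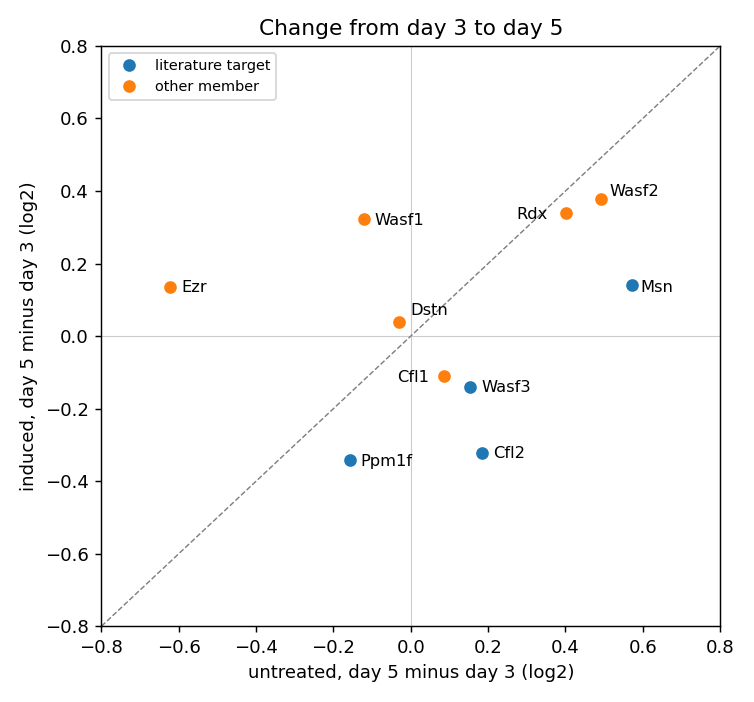
Change from day 3 to day 5 on the log2(intensity + 50) scale, untreated on the horizontal and induced on the vertical axis, 1 point per gene, literature targets in blue and other members in orange, dashed line at equal change. Ezr and Wasf1 lay above the line, Msn and Cfl2 below it, and Rdx and Wasf2 near it.

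Markers of epithelial and of mesodermal, mesenchymal and blood cells also differed between the cultures. All 8 epithelial markers were above background on every array, and their summed intensity ran from 17338 to 19520 untreated and from 19631 to 31719 induced. The keratin genes Krt8 and Krt18 had higher untreated intensities on day 5 (7013 and 6278) than on day 3 (767 and 1755). The other 6 read lower untreated on day 5 than on day 3, as Epcam did (3233 and 649). On day 5 all 8 read higher induced than untreated, Krt8 at 8004 and Krt18 at 7029 induced. The 8 mesenchymal markers summed to 6673, 20966 and 33139 untreated on days 3, 4 and 5, and to 6372, 11474 and 25736 induced. On day 5, 5 of them were at least 1.5-fold lower induced (3.51% of all genes tested). Cdh2 read higher induced that day, at 6003 untreated and 6653 induced. Blood and endothelium markers summed to 3145 untreated and 359 induced on day 5, with Pecam1 and Emcn below background on all arrays. Of these 8 markers, 2 untreated and 5 induced were not above background on day 5, and 7 on each array of days 3 and 4. Hbb-bh1 made up 1600 of the untreated sum, on a probe set with the suffix for probes able to bind other transcripts. The 6 pluripotency markers summed to 3206 untreated and 7761 induced on day 5. The part of these cell types in the day 5 differences of Ezr, Wasf1 and Msn was not tested. On day 3 the epithelial markers summed to 17338 untreated and 19631 induced, and the 8 mesoderm markers to 361 and 307. On that day 3 mesoderm markers untreated and 4 induced were not above background. The mesoderm markers summed to 9304 untreated and 3924 induced on day 4, and to 15581 and 12787 on day 5. On day 5, 5 of the 8 were at least 1.5-fold lower induced (3.51% of all genes tested). Mixl1 was 1 marker past 1.5-fold higher (5.24%), at 1714 untreated and 3373 induced. The brightest genes weigh most in such sums. The part of these cell types in the Cfl2 and Ppm1f differences was not tested either. Of 8 feeder fibroblast markers 3 were bright enough to test, Lum was below background on all arrays, and their sum was 252 to 937 untreated and 261 to 337 induced.

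Around the cofilins, the kinases that switch them off and the phosphatases that switch them on again were measured as a list of 8. Of the 7 tested with limma, 0 passed for induction (0 also at an unadjusted p under 0.05), 3 were higher on all 3 days (19.3% of all genes) and 0 lower on all 3 (14.3%), and the median difference was 0.13. Tesk2, a cofilin kinase, read 63.1 untreated and 125 induced on day 5. The cofilin phosphatase gene Pdxp went the other way on that day, at 235 and 142. For differentiation 1 of them passed (39.9% of all genes), the kinase gene Limk2, which rose by 0.46 (adjusted p = 0.022). Of 5 cofilin partners tested 0 passed for induction (0 unadjusted), and Cap2, which helps recycle actin subunits, read 167 untreated and 89.5 induced on day 5.

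The subunits that hold WAVE proteins in their complex differed little with induction on average, apart from Cyfip2. Of 5 tested 0 passed for induction (0 unadjusted), and for differentiation 3 rose (20.6% of all genes), Abi1, Brk1 and Nckap1, by 0.39 to 0.49. Abi1, Abi2, Brk1 and Nckap1 had mean differences between -0.05 and 0.06. Cyfip2, which binds Rac in the complex, read 610, 722 and 309 in the untreated culture and 615, 971 and 680 in the induced one. It passed only where the change per day was fitted too (adjusted p = 0.048), as did 1.45% of all genes. Its untreated level was lowest on day 5, as was that of Wasf1. Of Arp2/3 and its activators 0 of 8 passed for induction (0 unadjusted), with a median difference of 0.03, and for differentiation 4 rose and 1 fell (20.6% and 19.2% of all genes). Cttn, the cortactin gene, rose by 0.57 (adjusted p = 0.0022).

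Genes that work with ERM proteins also went both ways. Slc9a3r1, whose product NHERF1 is the scaffold that ezrin holds at microvilli, read 2537, 2187 and 1843 without doxycycline and 2933, 2648 and 2525 with it. It was higher in the induced culture on each day (0.31 ± 0.12, SD, n = 3 days). It passed only where the change per day was fitted too (adjusted p = 0.045), as did 1.45% of all genes, with 1 residual degree of freedom. With differentiation it fell by 0.33 (adjusted p = 0.024). The Slc9a3r1 probe set used also carries the suffix for probes able to bind other transcripts. Cd44, the hyaluronan receptor that ERM proteins bind, read 1454 untreated and 643 induced on day 5, and Podxl, another ERM-bound surface protein, 2443 and 1714. On days 3 and 4 Cd44 differed by 0.05 and -0.33. Podxl was higher in the induced culture on those days, by 0.05 and 0.34, and its mean difference was -0.04. Both genes rose with differentiation, Cd44 by 3.16 and Podxl by 1.69 on the log2 scale (adjusted p = 0.0027 and 0.0049). Of the 6 tested, 0 passed for induction in the test above, with Slc9a3r1 the 1 gene under an unadjusted p of 0.05 (8.42% of all genes).

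The genes whose pattern over the 6 arrays came nearest to Cfl2 were the hyaluronan synthase gene Has2, Cnep1r1 and the junction gene Jam3. Likeness was the root-mean-square distance between log2 values centred on each gene's mean, and came to 0.26 for each of the 3, beside a spread of 0.51 for Cfl2 itself. None was thus a close match, and their mean differences were -0.83, -0.51 and -0.49. Ppm1f was nearest to Zc3hc1 (0.06), Smoc1 (0.09) and Polr1e (0.11), and Msn to Ankrd46 (0.02), Dda1 (0.03) and Sec22b (0.04). These are the nearest of 9997 genes over 6 arrays and are given as a description.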

How the data were processed

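The deposited table holds 1 intensity per probe set and array on a linear scale, which the authors normalized and modelled in DNA-Chip Analyzer (dChip); its version and options, and detection calls, are not given in the sources used here. Of 45037 probe sets, 34945 carried a single symbol in the platform annotation and were used. For a gene with several probe sets the brightest on average was used. Intensities were taken as log2(intensity + 50), which damps differences of dim genes. A gene was tested where its brightest array was at or above 80.1, the median over all genes and arrays (9997 genes, 9 of 10 members). Background was the 95th percentile of 78 chemosensory receptor genes (olfactory, vomeronasal, taste and trace amine).

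Tests used limma 3.58.1 in R 4.3.3 (lmFit, eBayes with trend, two-sided, Benjamini-Hochberg at 0.05 over all genes tested), with treatment and day as a factor, leaving 2 residual degrees of freedom, and were checked on simulated data. The linear change of the effect per day was tested in a second fit, leaving 1. Nothing says that arrays came from separate experiments, so p-values measure only the spread between these samples. Differences of single days were counted past 1.5-fold, with no test. Alternatives were pseudocounts of 16 and 100, no filter on low values, probe sets averaged, quantile normalization, no intensity trend, a day left out, day not in the model, and the change per day added. The members, lists and alternatives were chosen with earlier results of these data known. Up to 3 genes of each list with the largest mean difference could be named; other list genes named were chosen after their values were seen. The number of arrays limits the precision. One further gene list is not reported here.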

Additional observations from a re-analysis of the deposited data

How the results depend on the processing

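For the members' differences with induction, 102 of 110 alternative values had the same direction and side of the threshold, whatever their size. With no filter, no intensity trend, no replicate block or the change per day added, the difference itself is the same by construction. Only the side of the threshold could move there, no member passed in the main fit, and Wasf3 was tested only with no filter. Cfl2 went past the threshold without day 5 (-0.84) and where the linear change per day was added (-0.998), each with 1 residual degree of freedom. With the probe sets of a gene averaged, the difference was -0.52 for Cfl2 and -0.23 for Ppm1f against -0.998 and -0.47, and turned to 0.0011 for Wasf2 and -0.020 for Wasf3, and the median of the 4 literature targets was -0.16. With a day left out, the difference ran from -0.031 to 0.067 for Cfl1 (lowest without day 3), from -0.034 to 0.39 for Ezr (lowest without day 5), from -0.15 to 0.061 for Msn (highest without day 5) and from -0.031 to 0.12 for Wasf3 (lowest without day 3). The cause was not tested. With a day left out, the median of the 6 other members ran from 0.011 to 0.081, and that of the 4 literature targets from -0.35 to -0.20.

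For induction, 145 genes and 1 member passed where the linear change per day was added, and 0 to 2 genes and 0 to 1 member with a day left out. Day pairs the cultures as the replicate block of the main fit, and with no replicate block 0 genes and 0 members passed. For day 5 minus day 3, 2454 genes passed without day 4 against 3984, and 1 member with probe sets averaged. For a changing effect over the days, 11 genes passed with a pseudocount of 100 and 2 with quantile normalization. The genes at least 1.5-fold lower on all 3 days were 2 with a pseudocount of 16 and 0 with probe sets averaged, alternatives chosen after seeing the data. Signal over background limits Wasf3 and the second probe set of Ppm1f.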

Other observations

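Actins and the proteins that cap, store or sever filaments were measured as a list of 10. For induction 0 passed (limma), with a median difference of 0.02. Gsn and Tmsb4x were the 2 at an unadjusted p under 0.05, beside 8.42% of all genes. For differentiation 4 rose and 0 fell, beside 20.6% and 19.2% of all genes. Actb and Actg1, the genes of the cytoplasmic actins, had mean differences of 0.01 and 0.03. Gsn, which encodes the severing protein gelsolin, read 94.9, 134 and 371 without doxycycline and 119, 235 and 701 with it on days 3, 4 and 5. It rose with differentiation by 1.85 on the log2 scale (limma, adjusted p = 0.0028), and its difference with induction (0.56 ± 0.31, SD, n = 3 days) passed only where the linear change per day was fitted too (adjusted p = 0.039). In that fit 1.45% of all genes passed, with 1 residual degree of freedom. The Gsn probe set used carries the suffix for probes able to bind other transcripts.

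Kinases of the PAK family, with the PIX and GIT proteins that bind them, gave 6 genes to test. Pak1 was not among the genes measured, and which of these kinases Ppm1f acts on was not analysed. For induction 0 passed (0 unadjusted) and the median difference was 0.04. Pak2 and Pak4 had mean differences of 0.01 and 0.12, and Pak3 read 152 and 87.6 untreated and 139 and 96.3 induced on days 3 and 4. On day 5 Pak3 was not above background in the untreated culture.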
